A study of Homo sapiens with 4 samples.

Results

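The genes described here are cytokines, chemokines and targets of the transcription factor NF-kB. They were chosen by name, with earlier results of these data known. Of 37 genes proposed, 36 were found on transcript clusters of their own among 18417 measured genes. CSF2 was not analysed here. The 36 genes comprised 25 secreted factors (10 cytokines, 12 chemokines and 3 acute-phase proteins), 4 NF-kB subunits, 3 feedback regulators and 4 cell-associated target products. The membrane-bound chemokines CXCL16 and CX3CL1 were counted with the secreted factors.

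NF-kB is a family of dimeric transcription factors held in the cytoplasm by inhibitors of the IkB type. Signals from cytokine and pattern-recognition receptors lead to breakdown of the inhibitor, and the freed dimers enter the nucleus and bind short DNA motifs near genes for cytokines, chemokines and adhesion molecules. Among the genes they switch on are their own inhibitors and several of their own subunits, which form feedback loops. Ovarian carcinoma cells are known to secrete several of these factors, IL-6 and IL-8 among them.

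Transcript levels were measured on 4 arrays of RNA from OVCAR-3, an established line of human ovarian carcinoma cells. In 2 arrays the cells carried a vector that lacked the H1.3 insert, and in the other 2 they were labelled as overexpressing human H1.3, a linker histone of chromatin; their titles read H1.3(H), and the meaning of the (H) is not known here. The comparison asks which transcripts differ when H1.3 is overexpressed. Neither the vector's promoter nor whether the replicates, called biological, were separate transfections or clones is stated in the sources used here, so p-values reflect only how far these 4 arrays spread, which may be technical.

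The transcript of the H1.3 gene itself ran against the label. H1-3 measured 8.65 and 7.88 on the log2 scale in the vector-only pair and 7.47 and 7.69 in the pair labelled H1.3, and so differed by -0.69 ± 0.24 (SE; adjusted p 0.319). The position of its probes relative to the insert is unknown here, and each direction given for the cytokine and NF-kB genes refers to the arrays labelled H1.3. Array medians lay between 6.21 and 6.27. The 12 epithelial markers of ovarian carcinoma measured 8.53 to 13.13 on the 4 arrays, with a median difference of -0.15. None passed limma. In the arrays labelled H1.3, 8 of the 12 were lower, 5 of them with separate groups. The other 4 were higher, by up to 0.32, and 2 of these had separate groups. At an unadjusted p under 0.05, 2 were lower and 0 higher. EPCAM, an epithelial adhesion molecule, differed by -0.57 ± 0.12 (SE, adjusted p 0.111). MSLN, the surface protein mesothelin, differed by -0.49 ± 0.15 (SE, adjusted p 0.232). Over all clusters, 19.4% were lower and 21.2% higher with separate groups, and 6.34% were lower at an unadjusted p under 0.05. Of the 9302 genes at or above the median level of named clusters, 4738 were lower, 2386 of them with separate groups. What part the differences of the epithelial markers have in those of the cytokine and NF-kB genes was not tested. The 15 leukocyte markers measured 3.13 to 6.96, with a median difference of 0.05, and 0 of them passed.

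The sequences that carry the NF-kB motifs are shown first, since the largest and the most opposed differences lay among genes that share them. RefSeq's promoter table for GRCh38.p14 held entries for 25 of the 36 genes, with 35 start sites in all because 7 genes had several. CXCL16, CCL2, CCL5, CSF1, RELB, CX3CL1, LIF, IL15, SAA1, IL7 and SAA2 had no entry. The 250 bases before each start were searched on both strands for the 10-base NF-kB consensus and for the shorter motif GGAANTTCC, where N is any base. A stretch that fits both motifs counts under each, and the capitals mark every base covered by a match. Each sequence runs 5′ to 3′ towards the gene and ends at the base before the start site, with 120 bases shown, or 200 for LCN2.

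The 6 CXC chemokine genes lie near each other on chromosome 4. Their windows were chr4:73740449-73740568 (+) for CXCL8, chr4:73836558-73836677 (+) for CXCL6, chr4:73869273-73869392 (+) for CXCL1, chr4:73998678-73998797 (-) for CXCL5, chr4:74038690-74038809 (-) for CXCL3 and chr4:74099196-74099315 (-) for CXCL2.
CXCL8: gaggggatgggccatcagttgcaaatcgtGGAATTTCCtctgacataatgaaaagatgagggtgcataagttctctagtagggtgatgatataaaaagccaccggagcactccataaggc
CXCL6: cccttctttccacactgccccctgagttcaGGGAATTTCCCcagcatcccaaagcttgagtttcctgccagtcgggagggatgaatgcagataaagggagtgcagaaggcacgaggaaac
CXCL1: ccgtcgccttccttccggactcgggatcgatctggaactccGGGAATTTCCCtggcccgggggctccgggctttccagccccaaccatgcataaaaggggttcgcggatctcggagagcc
CXCL5: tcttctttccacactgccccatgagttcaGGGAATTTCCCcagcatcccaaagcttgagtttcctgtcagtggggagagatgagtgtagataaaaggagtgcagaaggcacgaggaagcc
CXCL3: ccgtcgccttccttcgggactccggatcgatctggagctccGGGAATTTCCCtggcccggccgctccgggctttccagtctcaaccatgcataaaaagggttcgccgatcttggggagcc
CXCL2: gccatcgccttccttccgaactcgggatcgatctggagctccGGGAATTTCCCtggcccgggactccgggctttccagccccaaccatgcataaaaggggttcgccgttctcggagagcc

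The same 11 letters, GGGAATTTCCC, stood before CXCL6, CXCL1, CXCL5, CXCL3 and CXCL2, beginning 78 to 91 bases before the start. CXCL8 carried GGAATTTCC, which fits the shorter motif and not the consensus. Outside that stretch, the genes with the smallest p values were IL6 at chr7:22727080-22727199 (+), LCN2 at chr9:128149253-128149452 (+), REL at chr2:60881454-60881573 (+) and TNFAIP3 at chr6:137867139-137867258 (+).
IL6: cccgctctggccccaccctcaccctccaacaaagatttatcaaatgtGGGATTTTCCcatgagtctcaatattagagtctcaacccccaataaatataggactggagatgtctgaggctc
LCN2: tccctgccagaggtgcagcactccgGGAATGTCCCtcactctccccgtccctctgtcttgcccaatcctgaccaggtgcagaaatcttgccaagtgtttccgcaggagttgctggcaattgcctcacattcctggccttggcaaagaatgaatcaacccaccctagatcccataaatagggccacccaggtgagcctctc
REL: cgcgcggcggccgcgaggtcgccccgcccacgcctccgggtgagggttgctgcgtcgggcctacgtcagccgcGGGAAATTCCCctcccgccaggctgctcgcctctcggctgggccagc
TNFAIP3: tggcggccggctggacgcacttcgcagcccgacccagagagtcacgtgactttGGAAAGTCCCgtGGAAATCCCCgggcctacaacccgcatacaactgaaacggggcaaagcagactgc

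The consensus was found before 16 of the 25 genes, in 18 of their 35 windows (51.4%), and in 5.21% of the 35116 promoter windows of the table. GGAANTTCC was found in 11 of the 35 windows (31.4%), 1 each for 11 genes, and in 0.826% of all windows. Both were present in 1 window for each of 9 genes, and in 0.236% of all windows. These genes were proposed as NF-kB targets, so the shares describe the choice of genes. A match is a run of letters and not a measured binding site.

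Between the 2 groups of arrays, most of the 36 genes measured higher in the arrays labelled H1.3, but none passed the test over all transcript clusters. The log2 difference was above 0 for 29 genes and below 0 for 7, beside 52.8% above 0 over the 21214 clusters tested. Its median was 0.23 over the 36 genes and 0.02 over all genes. With limma and Benjamini-Hochberg adjustment over all clusters, 0 of the 36 genes were called higher and 0 lower at an adjusted p under 0.05. Across the array 0.24% of clusters were called higher and 0.264% lower. The smallest adjusted p among the 36 was 0.0821.

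At an adjusted p under 0.10, CXCL8, TNFAIP3 and LCN2 were higher, 3 of 36 genes, against 0.636% of all clusters. At an unadjusted p under 0.05, 12 genes were higher and 1 was lower, against 5.21% and 6.34% of all clusters. Both arrays labelled H1.3 lay above both vector-only arrays for 17 genes and below both for 4, where 21.2% and 19.4% of all clusters did so. The 36 genes share the same 4 arrays and cannot be counted as independent observations. They were also chosen with earlier results of these data known, so their shares are not those of a list picked blind.

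**Figure D1:**
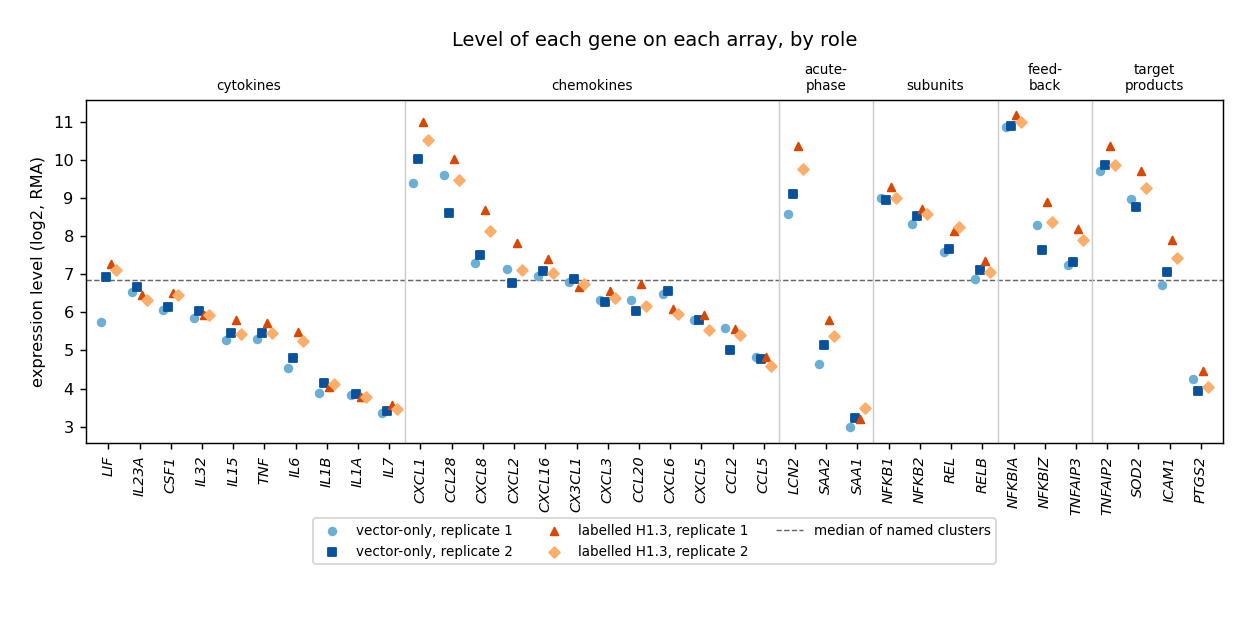
Expression level of each of the 36 genes on each array (vertical axis, log2 RMA value), ordered by role; blue symbols are the 2 vector-only arrays, orange symbols the 2 arrays labelled H1.3, and the dashed line is the median level of the named clusters, 6.84. Orange symbols lie above both blue ones for 17 genes and below both for 4, and values run from 2.98 to 11.16.

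Among the chemokines, which guide leukocytes along gradients, CXCL8 and CXCL1 had the largest differences. CXCL8, the neutrophil attractant IL-8, measured 7.29 and 7.49 in the vector-only pair and 8.68 and 8.12 in the pair labelled H1.3. The groups did not overlap, and the difference was 1.01 ± 0.19 (SE), or 2.01-fold, with an adjusted p of 0.0922. CXCL1, another neutrophil attractant, measured 9.38 and 10.02 against 10.99 and 10.51. Its groups were also separate, with a difference of 1.05 ± 0.24 (SE), 2.07-fold, and an adjusted p of 0.131. Leaving out 1 array gave differences of 0.73 to 1.29 for CXCL8 and 0.73 to 1.37 for CXCL1.

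CXCL6, which also attracts neutrophils, lay on the other side. It measured 6.48 and 6.57 in the vector-only pair and 6.08 and 5.96 in the pair labelled H1.3, so both of the latter were lower. The groups differed by -0.51 ± 0.12 (SE; adjusted p 0.138), and by -0.57 to -0.45 when any 1 array was left out. It was the only gene of the 36 with a negative difference and an unadjusted p under 0.05.

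The other CXC chemokines of the chromosome 4 stretch had smaller differences. CXCL2 measured 7.14 and 6.76 against 7.82 and 7.10, and so differed by 0.51 ± 0.24 (SE; adjusted p 0.492). Without the first array labelled H1.3 the value was 0.15, and without the second 0.87. Its groups overlapped, because the second array labelled H1.3 fell below the first vector-only array. CXCL3 differed by 0.17 ± 0.12 (adjusted p 0.669) and CXCL5 by -0.06 ± 0.15 (adjusted p 0.934). In chromosome order the stretch ran CXCL8 1.01, CXCL6 -0.51, PF4V1 0.05, CXCL1 1.05, PF4 -0.09, PPBP 0.05, CXCL5 -0.06, CXCL3 0.17, PPBPP2 0.04 and CXCL2 0.51. PF4V1, PF4, PPBP and PPBPP2 had mean levels of 4.25 to 5.29, below the median level of 6.84, so that little can be read from their small differences. CXCL6, CXCL5 and CXCL3 also lay below it, at mean levels of 6.27, 5.77 and 6.38. CXCL1, CXCL2 and CXCL3 resemble each other in sequence, as do CXCL5 and CXCL6, and how far their probes share signal was not tested.

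**Figure D2:**
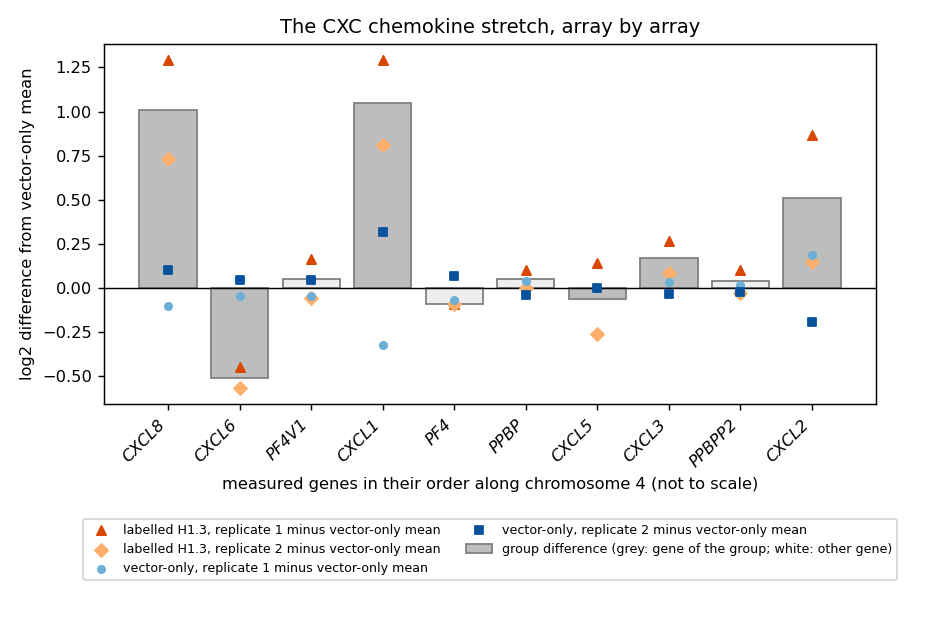
Log2 difference from the vector-only mean (vertical axis) for the measured genes of the CXC chemokine stretch in their order along chromosome 4, spaced evenly; bars are the group difference and points the single arrays. CXCL8 and CXCL1 stand at 1.01 and 1.05, CXCL6 at -0.51, and the dim platelet chemokine genes PF4V1, PF4 and PPBP between -0.09 and 0.05.

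Genes with the same promoter letters had measured differences of both signs. The 5 genes with GGGAATTTCCC differed by 1.05 (CXCL1), 0.51 (CXCL2), 0.17 (CXCL3), -0.06 (CXCL5) and -0.51 (CXCL6). CXCL3, CXCL5 and CXCL6 lay below the median level, and little can be read from the small differences of CXCL3 and CXCL5. Over the 18 genes with either motif the median log2 difference was 0.40, with 14 above 0. For the 7 genes with an entry and neither motif it was 0.21, with 6 above 0. By the consensus alone the order of the medians turned, at 0.26 with a match and 0.34 without. By GGAANTTCC alone the medians were 0.51 with a match and 0.26 without. For genes with both motifs the median was 0.21, and 0.31 for the others with an entry. None of these splits was tested.

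Of the remaining chemokines, none had an unadjusted p under 0.05. CCL28, a mucosal chemokine of epithelial cells, measured 9.59 and 8.60 against 10.01 and 9.46, and so differed by 0.64 ± 0.32 (SE; adjusted p 0.524). The vector-only arrays themselves lay 0.99 apart, and the difference was 1.14 without the first of them and 0.14 without the second. CCL20, the ligand of CCR6, measured 6.32 and 6.03 against 6.75 and 6.17, a difference of 0.28 that was -0.01 without the first array labelled H1.3. CXCL16, a transmembrane chemokine that can be shed, differed by 0.20 (adjusted p 0.686). The monocyte attractant CCL2 differed by 0.19 (adjusted p 0.793), CCL5 by -0.09 (adjusted p 0.873) and the membrane-bound chemokine CX3CL1 by -0.14 (adjusted p 0.738). Of the 12 chemokines, 8 differed by more than 0 and 4 by less, and the median was 0.20.

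Among the cytokines, both arrays labelled H1.3 lay above both vector-only arrays for IL6, LIF, CSF1 and IL7, and below both for IL1A and IL23A. Of these, IL6, LIF and CSF1 had an unadjusted p under 0.05. Over all clusters, 21.2% lay above both and 19.4% below both, and 5.21% were higher at that threshold. IL6, which acts through the shared receptor chain gp130, measured 4.54 and 4.81 in the vector-only pair and 5.49 and 5.25 in the pair labelled H1.3. Both of the latter were higher, by 0.69 ± 0.15 (SE), or 1.62-fold, with an adjusted p of 0.111. All 4 values were under 6.84, the median level of named clusters. CSF1, the growth factor of macrophages, measured 6.05 and 6.15 against 6.51 and 6.44, and so differed by 0.38 ± 0.12 (SE; adjusted p 0.251).

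LIF, a cytokine of the IL-6 family, rested on a single vector-only array. It measured 5.74 and 6.93 in the vector-only pair and 7.26 and 7.12 in the pair labelled H1.3. The groups did not overlap, but the difference of 0.86 ± 0.34 (SE, adjusted p 0.390) was 0.26 without the first vector-only array and 1.45 without the second. Leaving out either array labelled H1.3 gave 0.78 or 0.93.

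The cytokines best known as triggers of NF-kB lay below the median level on each array. IL1A measured 3.77 to 3.85 on the 4 arrays, with a difference of -0.05 ± 0.11 (adjusted p 0.915), and IL1B 3.89 to 4.15, with a difference of 0.06 ± 0.13 (adjusted p 0.915). TNF had 3 transcript clusters with identical values, counted once, at 5.30 and 5.45 against 5.72 and 5.45. The second array of each group had the same value, and the difference was 0.21 ± 0.14 (adjusted p 0.646). IL15 and IL7, which sustain lymphocytes, differed by 0.26 and 0.13, with adjusted p of 0.598 and 0.755. IL32 differed by -0.02 (adjusted p 0.980). IL23A, the p19 subunit of interleukin 23, measured 6.54 and 6.65 against 6.45 and 6.31, differing by -0.22 (adjusted p 0.576). Over the 10 cytokines, 7 differences were positive and 3 negative, with a median of 0.17.

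The largest difference of all 36 genes was in LCN2, which encodes lipocalin 2, a secreted protein that binds bacterial iron carriers. It measured 8.58 and 9.11 in the vector-only pair and 10.37 and 9.76 in the pair labelled H1.3. The groups did not overlap, and the difference was 1.22 ± 0.24 (SE), or 2.33-fold, with an adjusted p of 0.0951. It ranged from 0.91 to 1.52 when 1 array was left out.

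The serum amyloid A genes, acute-phase apolipoproteins, gave values that differed by transcript cluster. The SAA2 cluster of highest mean measured 4.64 and 5.14 against 5.80 and 5.39, and so differed by 0.70 ± 0.20 (SE; adjusted p 0.217). The other SAA2 cluster measured 4.85 and 5.23 against 5.40 and 5.18, differing by 0.25 (adjusted p 0.638) and with overlapping groups. SAA1 differed by 0.23 (adjusted p 0.649) at levels of 2.98 to 3.49. The 2 genes are near copies, and 1 further cluster was annotated to both, so which of them gave the signal cannot be told apart. That shared cluster measured 2.98 and 2.99 against 2.93 and 3.04, with a difference of 0.0. The first SAA2 cluster had the higher mean over all 4 arrays, 5.24 against 5.17, only through the arrays labelled H1.3, since in the vector-only arrays it was the lower, at 4.89 against 5.04. Taking the cluster of highest vector-only mean instead, a choice made after seeing the data that changed SAA2 alone, 16 genes in place of 17 had both arrays labelled H1.3 on top and 11 in place of 12 were higher at an unadjusted p under 0.05.

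The 4 subunits and 3 feedback regulators among the 36 genes all measured higher in the arrays labelled H1.3, with a median difference of 0.23, against 0.21 for the 25 secreted factors, of which 18 were positive. Both arrays labelled H1.3 lay above both vector-only arrays for 5 of the 7. Of the 25 secreted factors, 9 lay above and 4 below. Over all clusters, 21.2% lay above and 19.4% below. All 7 had mean levels above the median of named clusters, 6.84. The secreted factors above that level were CXCL8, CXCL1, CXCL2, CXCL16, CCL28 and LCN2. They were also all positive, by 0.20 to 1.22, and each negative difference belonged to a secreted factor below that level. The difference between secreted factors and the 7 subunits and feedback regulators was not tested.

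TNFAIP3, which encodes the ubiquitin-editing enzyme A20 that shuts NF-kB signalling down, had the smallest p of the 36 genes. It measured 7.25 and 7.32 in the vector-only pair and 8.19 and 7.90 in the pair labelled H1.3. The vector-only replicates lay close together, and those labelled H1.3 lay 0.29 apart. The groups did not overlap, at a difference of 0.76 ± 0.14 (SE), or 1.69-fold. Its adjusted p was 0.0821, and 0.0414 when limma's variance estimate was made robust and allowed to follow the level, the only refit in which a gene of the 36 passed 0.05.

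The other feedback regulators behaved less evenly. NFKBIZ, an atypical IkB protein of the nucleus, measured 8.30 and 7.64 against 8.89 and 8.37, and so differed by 0.66 ± 0.25 (SE; adjusted p 0.366). The value was 0.99 without the first vector-only array and 0.33 without the second. It was 0.40 without the first array labelled H1.3 and 0.92 without the second. The size of the difference thus rested on which arrays of either group were used. NFKBIA, the classical inhibitor IkB-alpha, measured 10.86 and 10.89 against 11.16 and 11.00. Its groups were separate, at a difference of 0.21 ± 0.12 (SE) and an adjusted p of 0.593.

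Of the subunits, REL had the most even replicates. REL encodes c-Rel, a subunit best known from lymphocytes, and measured 7.58 and 7.67 in the vector-only pair and 8.14 and 8.24 in the pair labelled H1.3. The difference was 0.56 ± 0.12 (SE), or 1.48-fold, with an adjusted p of 0.108, and 0.52 to 0.61 when 1 array was left out. NFKB2, the precursor of p52, differed by 0.23 ± 0.13 (adjusted p 0.588), RELB, its partner, by 0.20 ± 0.15 (adjusted p 0.677) and NFKB1, the precursor of p50, by 0.17 ± 0.14 (adjusted p 0.730). RELA, which encodes the p65 subunit and was not among the 36, measured 9.11 and 9.09 against 8.98 and 8.89, so its groups were separate and it was the lower, differing by -0.17 (adjusted p 0.666).

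All 4 cell-associated target products had positive differences, with a median of 0.47. ICAM1, an adhesion molecule bound by leukocyte integrins, measured 6.72 and 7.05 in the vector-only pair and 7.90 and 7.41 in the pair labelled H1.3, and so differed by 0.77 ± 0.19 (SE; adjusted p 0.156). SOD2, the mitochondrial manganese superoxide dismutase, measured 8.98 and 8.76 against 9.70 and 9.27, and so differed by 0.61 ± 0.17 (SE; adjusted p 0.196). Neither gene's groups overlapped, and leaving out 1 array gave 0.52 to 1.01 for ICAM1 and 0.40 to 0.83 for SOD2. TNFAIP2, a TNF-induced protein of the cytoskeleton and membrane, measured 9.70 and 9.85 against 10.36 and 9.86. Its groups were separated by 0.01 only, and the difference was 0.34 ± 0.18 (SE, adjusted p 0.549), or 0.08 without the first array labelled H1.3. PTGS2, the inducible cyclooxygenase COX-2, stayed between 3.93 and 4.47, with a difference of 0.16 and an adjusted p of 0.814.

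**Figure D3:**
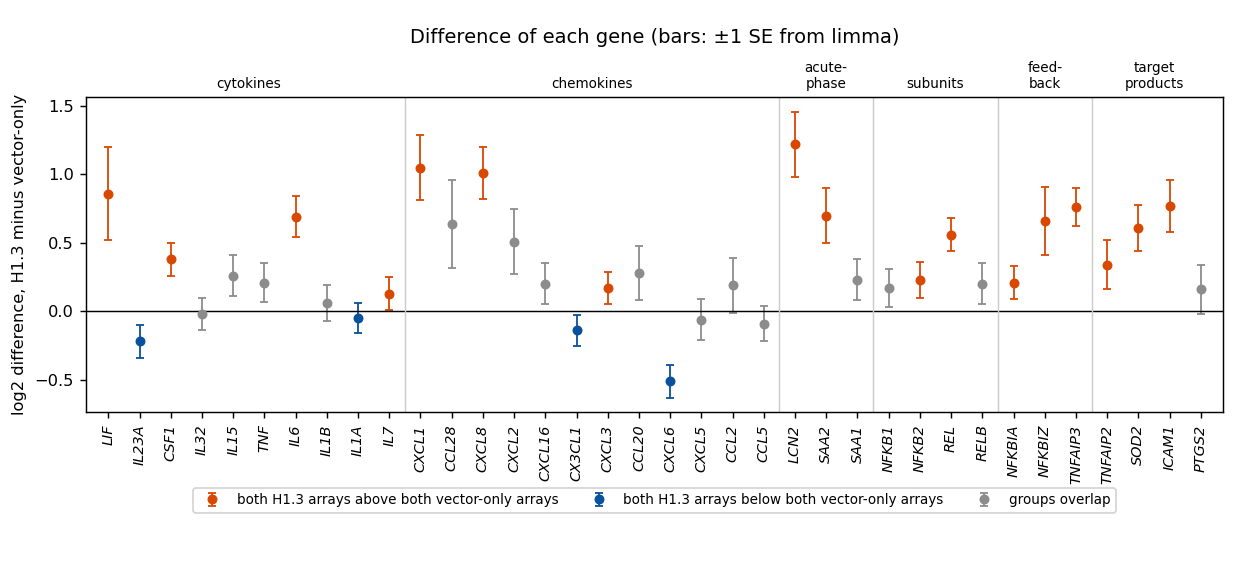
Log2 difference, arrays labelled H1.3 minus vector-only arrays, for each of the 36 genes by role; points are the group difference, bars 1 standard error from limma, and colours show whether the groups overlap. Differences run from -0.51 (CXCL6) to 1.22 (LCN2), and the 7 subunits and feedback regulators and the 4 target products all lie above 0.

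The genes were also read by level. All 16 of the genes with a mean at or above the median of the named clusters had positive differences, with a median of 0.59, whereas 4453 of the 9302 genes at such levels (47.9%) did, with a median of -0.01. Of the 20 genes below that level, 13 were positive and 7 negative, with a median of 0.17, beside 58.7% positive and a median of 0.04 over all genes below it. All 7 negative differences thus belonged to genes below the median level, and 6 of the 36 genes had a mean below 5. Levels of different probe sets are not on one scale, so this describes the split and orders no genes.

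Replicates were not alike in these genes, in either group. Of the arrays labelled H1.3, the first lay above the second for 31 of the 36 genes (86.1%), by a median of 0.27, where 53.4% of all genes did. Among the 16 genes at or above the median level it was higher for 15 (93.8%), by a median of 0.46, compared with 40.8% of the 9302 genes at such levels. REL, SAA1, IL1B, IL32 and CX3CL1 were the exceptions, measuring higher on the second array. In the vector-only pair the first array lay below the second for 25 of the 36 genes (69.4%), by a median difference of -0.10, where 49.9% of all genes did, with a median of 0.00. The median difference over the 36 genes was 0.11 without the first array labelled H1.3 and 0.38 without the second. It was 0.23 without the first vector-only array and 0.30 without the second. In bulk RNA, a larger share of cells with a transcript and more of it per cell cannot be told apart.

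**Figure D4:**
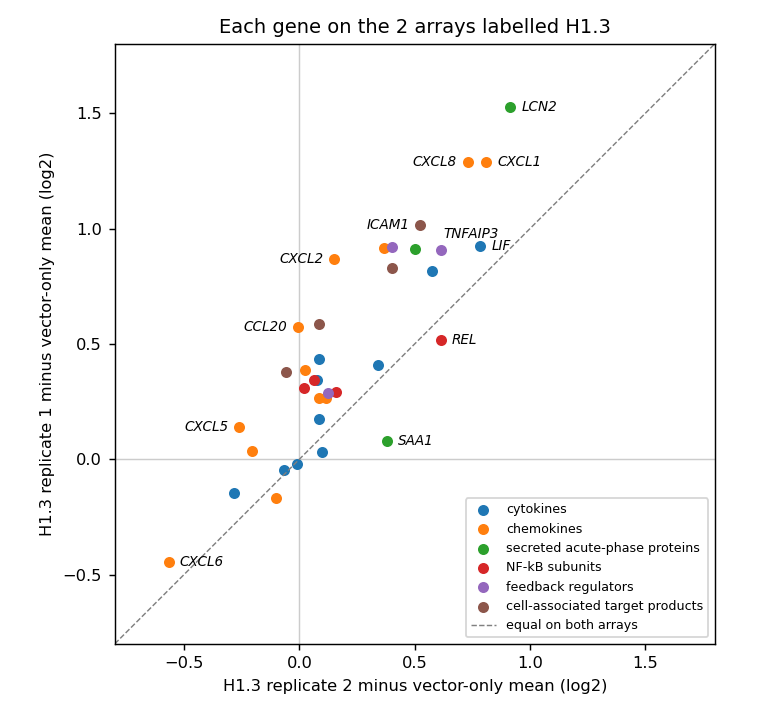
Each of the 36 genes on the 2 arrays labelled H1.3, both as log2 difference from the vector-only mean (vertical axis, replicate 1; horizontal axis, replicate 2), coloured by role; the dashed line marks equal values. Points lie above the line for 31 of the 36 genes, with LCN2 at the top and CXCL6 at the lower left.

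Genes around these on the chromosomes had median differences that varied from place to place. For each gene, the median difference of up to 10 genes on each side, at or above the median level, lay between -0.29 (beside IL7) and 0.27 (beside PTGS2), and its median over the 36 genes was 0.03. Both ends of that range were larger in size than the median of 0.23 over the 36 genes themselves. Next to LCN2 it was 0.13, next to TNFAIP3 -0.01 and next to NFKBIZ 0.22. Next to TNF and IL15 it was 0.14 and 0.18, where the genes themselves differed by 0.21 and 0.26. Each of the 6 CXC chemokines of chromosome 4 had 0.05, so that region enters the median 6 times. Whether the genes moved with their neighbours was not tested.

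Receptors of these factors were listed by name as well, and 27 were measured. None passed limma over all clusters. At an unadjusted p under 0.05, 1 was higher and 1 lower, with 15 positive and 12 negative differences and a median of 0.04. Over all clusters, 5.21% were higher and 6.34% lower at that threshold. IL6ST, which encodes gp130, the signalling chain for IL-6 and LIF, measured 8.23 and 8.18 against 8.82 and 8.97, and so differed by 0.69 ± 0.12 (SE; adjusted p 0.0795). IL1R1, the interleukin 1 receptor, measured 9.87 and 9.97 against 9.75 and 9.16, and so differed by -0.47 ± 0.19 (SE; adjusted p 0.421). That was -0.76 without the first array labelled H1.3 and -0.17 without the second. The IL-8 receptors lay below the median level, CXCR1 at 3.63 to 3.96 and CXCR2 at 3.41 to 3.52. IL6R and TNFRSF1A differed by 0.11 and 0.20, with adjusted p of 0.793 and 0.667.

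Of 17 measured transducers between receptor and NF-kB, 0 passed, and 1 was higher and 1 lower at an unadjusted p under 0.05. These counts lie near the shares over all clusters, 5.21% higher and 6.34% lower. IRAK1, a kinase of the interleukin 1 receptor pathway, differed by 0.69 ± 0.11 (SE, adjusted p 0.0698). BIRC2, the ubiquitin ligase cIAP1, differed by -0.71 ± 0.12 (SE, adjusted p 0.0786). Of 17 further feedback regulators, 0 passed and 1 was higher at an unadjusted p under 0.05, again near the 5.21% of all clusters. Their median was 0.11, with 12 positive differences, beside 52.8% above 0 over all clusters. ZC3H12A, a nuclease that degrades cytokine mRNAs, differed by 0.46 (adjusted p 0.358), or 0.23 to 0.67 with 1 array left out, and the nuclear IkB protein BCL3 by 0.31 (adjusted p 0.503), or 0.14 to 0.46.

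Other cytokines and chemokines, 37 measured, had a median difference of 0.02, with 23 positive. IL12A, which encodes the p35 chain of interleukin 12, fell by 2.36 ± 0.14 (SE; adjusted p 0.00322), and the other 36 did not pass. Of 21 other NF-kB targets measured, 17 were positive and 4 negative, the lowest at -1.17, with a median of 0.14. Over all clusters 52.8% were above 0. At an unadjusted p under 0.05 in limma, 7 were higher and 1 lower, against 5.21% and 6.34% of all clusters. At an adjusted p under 0.05, 0.24% of all clusters were called higher and 0.264% lower. Of the 21 targets, 3 were called higher at that threshold. These were S100A8, a subunit of calprotectin (2.62 ± 0.37, adjusted p 0.0467), the complement factor gene CFB (1.38 ± 0.20, adjusted p 0.0475) and the elastase inhibitor gene PI3 (1.03 ± 0.15, adjusted p 0.0477). S100A8 measured 6.32 and 6.16 against 9.52 and 8.19, and its difference ran from 1.95 to 3.28 with 1 array left out. Leaving out any 1 array ended these calls, as it did all calls on the array.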

How the data were processed

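The authors deposited log2 values for 33297 transcript clusters on 4 one-colour arrays, to 2 decimals. Per the submitters' processing notes, Affymetrix Expression Console and RMA were used (versions: not given in the sources used here). The RMA method corrects background, equalises array distributions and summarises probes, so single probes and background could not be examined. Symbols came from the platform annotation, updated to RefSeq GRCh38.p14. For the array annotation the genome build was not stated.

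Arrays labelled H1.3 were compared with vector-only arrays in limma 3.58.1 under R 4.3.3 (lmFit, eBayes, two-sided, no covariate), over the 21214 clusters with a symbol, with Benjamini-Hochberg adjustment and a threshold of 0.05. The number of arrays, 2 a group, limits the precision, and log2 differences had a median standard error of 0.128, with 2 residual and 5.16 prior degrees of freedom. A gene with several clusters was represented by the one of highest mean. The steps were tested on simulated data.

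The genes and lists were chosen with earlier results of these data known. Genes are given in full where the log2 difference was at least 1, or where the groups did not overlap and the unadjusted p was under 0.05. From the other lists, the passing genes or the 2 with the smallest p are named, with RELA and 6 receptors in any case. Replicate numbers were not taken as pairs: no label says that a number marks a shared batch, and same-numbered arrays deviated together with a correlation of 0.06 only. Alternatives changed the moderation, scaling, filter, clusters tested and threshold, added the replicate number, or left out each array.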

Additional observations from a re-analysis of the deposited data

How the results depend on the processing

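Over all clusters 51 were called higher and 56 lower, and the counts moved to 107 and 138 with a robust variance trend, 6 and 3 without moderation, 19 and 31 with arrays at one median, 6 and 19 at or above the median level, 1 and 3 over the whole value table, 135 and 176 when the adjusted p was held under 0.10 only, 282 and 401 when 1.5-fold and an unadjusted p under 0.05 were asked for, and 29 higher after a second quantile normalization. Leaving out 1 array gave 0 to 0 in both directions, where 1292 to 2367 clusters, 6 to 15 of the 36 genes among them, still had an unadjusted p under 0.05. With the replicate number as a block 0 and 0 clusters were called, and 2195 clusters and 14 of the 36 genes had an unadjusted p under 0.05. The block left the 36 genes uncalled, as without it.

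Of the 36 genes, 1 (TNFAIP3) was called higher with the robust trend, 3 with the adjusted p under 0.10 only, and 10 by 1.5-fold and an unadjusted p under 0.05 (IL6, CXCL8, CXCL1, TNFAIP3, NFKBIZ, ICAM1, LIF, SOD2, LCN2 and SAA2). Over all clusters and both directions the same settings called 1.15%, 1.47% and 3.22%. At that threshold H1-3, at -0.69, also passed, and its difference ran from -1.07 to -0.30 with 1 array left out. Groups did not overlap for 21 genes (58.3%, and 40.6% of all clusters), for 11 at or above the median level (68.8% and 47.6%), and for 24 to 32 with 1 array left out (66.7% to 88.9%), where fewer arrays are compared and 65.3% to 73.9% of all clusters did so. Without the first array labelled H1.3 the share was 66.7% both of the genes and of all clusters. With the SAA2 cluster of highest vector-only mean, a choice added after seeing the data, 20 did not overlap and 9 in place of 10 passed 1.5-fold. The median over the genes was 0.59 at or above the median level, where only 16 are tested, and 0.11 to 0.38 with 1 array left out. The median of neighbours was 0.06 after a second quantile normalization and -0.03 to 0.06 with 1 array left out.

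In 29 of the 36 genes the sign held in each setting run. With 1 array left out, the sign turned for CCL2 (-0.11 to 0.48), CCL20 (-0.01 to 0.57), CCL5 (-0.21 to 0.03), CXCL5 (-0.26 to 0.14), IL1B (-0.07 to 0.19), IL32 (-0.11 to 0.07) and PTGS2 (-0.06 to 0.38), and the cause was not tested.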
